A study of Caenorhabditis elegans with 30 samples.

Results

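The genes described here are 10 members of the p38 and stress-activated MAP kinase cascades of Caenorhabditis elegans: tir-1, nsy-1, sek-1, pmk-1, pmk-2, pmk-3, atf-7, skn-1, vhp-1 and kgb-1. They were chosen by name, and each was read from the array probe sets annotated to that gene alone. Probe sets were found for 9 of the 10 (16 of the 22625 probe sets on the array, which name 17118 genes in all), and nsy-1 is only named here. Of these 9 genes, 8 (15 probe sets) were bright enough to be tested, and pmk-2 was not. Where a gene had several probe sets, the one with the highest mean over all arrays stood for it in every count, and the others are given beside it.

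RNA from whole young adults was measured on 30 Affymetrix arrays, 3 in each of 10 groups. Wild-type N2 worms were kept on isotonic agar with 51 mM NaCl, or were moved as young adults to 200 mM NaCl for 15 min, 1 h or 6 h. Worms of the 1 generation group were placed on hypertonic agar with 200 mM NaCl as L1 larvae and grew to young adults there. That group therefore differs from the others in the stage exposed as well as in time. The other 5 groups were mutants on isotonic agar, each represented by 1 allele. The cuticle collagen mutants were dpy-9(e12) and dpy-10(e128), and the osm mutants were osm-11(n1604), osm-7(n1515) and osm-8(n1518). Worms were synchronized and sorted by a flow sorter whose gate left out L4 and younger animals, and every array was hybridized with RNA of the entire body, so no value is specific to a tissue. The deposited values are normalized intensities, and all levels below are their log2. Changes are log2 differences between group means of 3 arrays, and all 9 comparisons with isotonic N2 share the same 3 isotonic arrays.

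In this cascade the adaptor TIR-1 activates the kinase NSY-1, which activates SEK-1, which in turn activates the p38 kinases. In the intestine PMK-1 phosphorylates the transcription factor ATF-7 to switch on immune genes, and it also acts on SKN-1, the factor of the oxidative stress response. In the epidermis the same kinases are needed for the induction of antimicrobial nlp peptides by wounding and fungal infection, and KGB-1, a JNK-like kinase, runs in a parallel stress module that the phosphatase VHP-1 restrains together with PMK-1. Much of this regulation is by phosphorylation, which arrays do not measure. The study states that responses to pathogens need the sek-1 and pmk-1 pathway, whereas osmosensitive gene expression does not. It cites earlier work and its own unpublished observations for this. Whether the target genes below follow p38 activity in these samples was not tested.

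Arrays of a group correlated with r from 0.990 to 0.998, and no array stood apart by that measure. The 6 dpy arrays did stand apart in their median intensity, at 13.9 to 14.5 against 9.97 to 12.3 on the other 24 arrays, and calls of members lost with quantile normalization are named as such. The groups differed in tissue markers. All 10 oocyte and embryo markers were lower in osm-8, dpy-9 and dpy-10, and the summed intensity of that list was 85385 to 89324 in isotonic N2, 44085 to 49748 in osm-8, 20674 to 25302 for dpy-9 and 16099 to 19588 for dpy-10. All 6 body wall muscle markers were higher in both dpy strains (summed intensity 30366 to 34312, against 9348 to 10658 in isotonic N2), as were 6 of 8 hypodermal markers (the other 2, grd-3 and col-19, were lower in dpy-9), and 4 of 5 tested sperm markers in dpy-9 and 5 of 5 in dpy-10. In osm-8 too all 6 muscle, 6 of 8 hypodermal and 4 of 5 tested sperm markers were higher, with none lower. The osm-8 strain had 6 of 8 intestinal markers higher, dpy-9 had 5 and dpy-10 had 7, with none lower. Germline markers were lower in osm-8 (6 of 8) and in each dpy strain (7 of 8), with none higher. The sperm list summed to 60.7 to 76.1 in isotonic N2, 960 to 1113 in osm-8 and 2594 to 3048 in dpy-9. The genes spe-9 and spe-38 were near background in every group. The median change of all tested probe sets was below -0.1 in 4 strains: dpy-9 (-0.23), dpy-10 (-0.22), osm-8 (-0.16) and osm-11 (-0.11). Since whole worms were used, fewer cells of a type and less RNA per cell cannot be told apart in any of the values below, and the part of body composition in them was not tested.

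Changes of the 8 tested genes were few in wild type and in osm-7 and osm-11, and more frequent in the dpy strains, where most of the array changed. A gene was called changed at an adjusted p of at most 0.01 (limma's moderated test with the Benjamini-Hochberg adjustment over all tested probe sets). After 15 min 1 gene was lower (atf-7), against 12.1 percent of all tested probe sets changed and 6.24 percent lower. After 1 h 1 gene was higher (tir-1), against 4.85 percent higher. None was changed after 6 h (background 5.72 percent) or after 1 generation (7.70 percent). By limma, 0 of 8 members had an unadjusted p under 0.05 at either time, as 20.7 percent of all probe sets did after 6 h and 26.3 percent after 1 generation.

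Among the mutants, osm-7 had no changed member (background 7.71 percent), with 1 of 8 at an unadjusted p under 0.05 (28.9 percent of all). The osm-8 strain had none either, although 38.5 percent of all probe sets were changed there, and 4 of 8 members had an unadjusted p under 0.05 by limma (58.2 percent of all). In osm-11 tir-1 alone was changed, and higher (background 13.5 percent changed). In dpy-9 tir-1, vhp-1 and kgb-1 were higher, 3 of 8 against a background of 62.0 percent changed and 26.2 percent higher. In dpy-10 the same 3 genes and pmk-3 were higher and atf-7 was lower, 5 of 8 against 64.6 percent changed, 28.8 percent higher and 35.8 percent lower. The share of members changed in the dpy strains was near or below that of the array. A change of 3-fold or more, the size the study required, was passed by tir-1 in osm-11 (3.18 percent of all probe sets rose by as much). In dpy-10 tir-1 and kgb-1 passed it, 2 of 8 members, a share near the 28.3 percent of all probe sets in either direction. Both exceeded that size in dpy-9 as well, where the matching share of all probe sets is not given here.

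**Figure D1:**
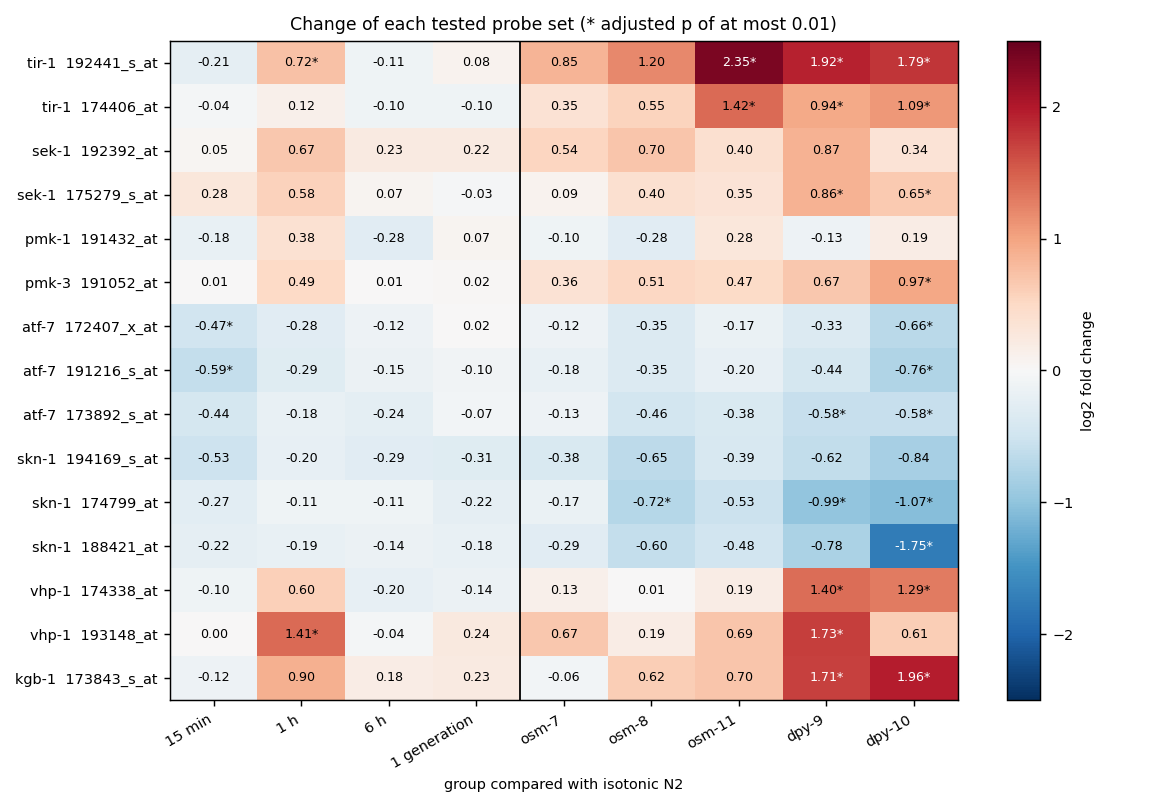
Log2 fold change against isotonic N2 of the 15 tested probe sets of 8 genes (vertical axis) in the 9 comparisons (horizontal axis), as colour and printed value, with an asterisk at an adjusted p of at most 0.01. Values for tir-1 reach 2.35 in osm-11, and values for vhp-1 and kgb-1 are highest in dpy-9 or dpy-10.

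The median change of the 8 genes was 0.55 after 1 h, against -0.01 over all tested probe sets, and 7 of the 8 had an unadjusted p under 0.05 there (25.7 percent of all probe sets did). Among these 7, atf-7 was lower (-0.28) and the others were higher. At an adjusted p of at most 0.05, 3 of the 8 passed after 1 h (background 13.6 percent): tir-1, kgb-1 and pmk-3. The member medians at the other times were -0.15 (15 min), -0.12 (6 h) and 0.05 (1 generation), against -0.07, -0.01 and -0.04 over all probe sets. Among the mutants the member median was lowest for osm-7 (0.03), followed by osm-8 (0.26), osm-11 (0.34), dpy-10 (0.65) and dpy-9 (0.77).

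**Figure D2:**
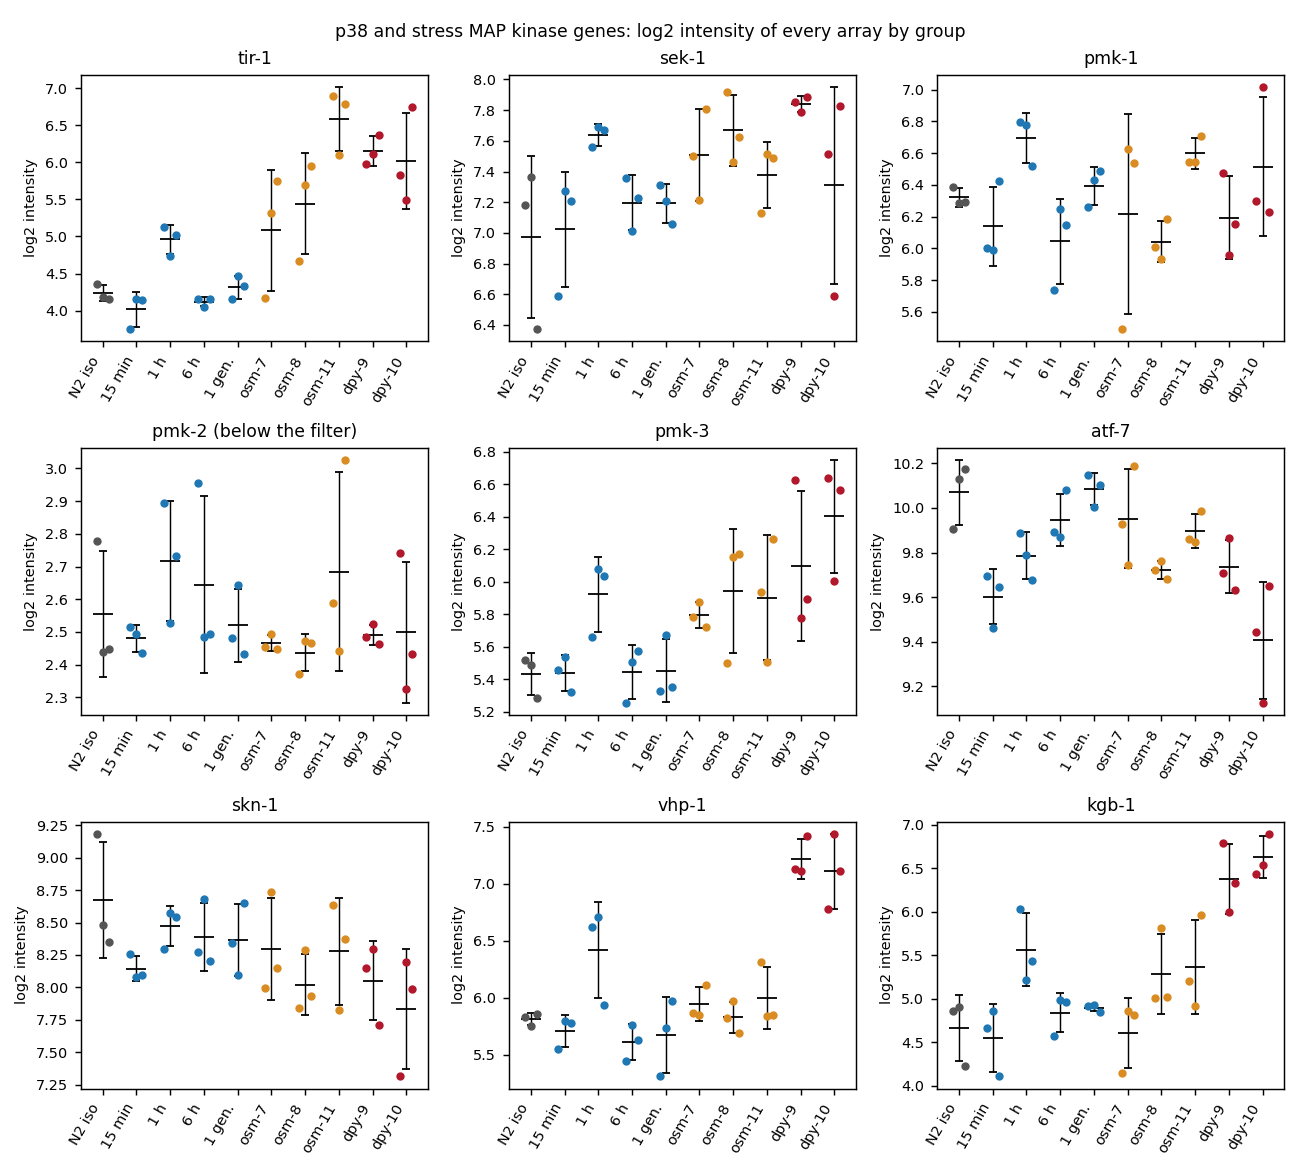
Log2 intensity (vertical axis) of the 9 genes with a probe set, 1 panel per gene, on each of the 30 arrays, ordered by group (horizontal axis), with group mean and SD (n = 3). The 1 h arrays of tir-1 and both dpy groups of vhp-1 and kgb-1 lie above all isotonic arrays, and pmk-2 stays between 2.33 and 3.02 throughout.

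At the top of the cascade, tir-1 encodes a TIR domain adaptor of the SARM family. Its level was 4.35, 4.19 and 4.16 on the isotonic N2 arrays. Hypertonic worms had levels of 3.75, 4.16 and 4.15 (15 min), 5.12, 4.74 and 5.02 (1 h), 4.15, 4.05 and 4.16 (6 h), and 4.15, 4.46 and 4.33 (1 generation). Only the 1 h arrays lay wholly above the isotonic ones. The rise at 1 h was 0.72 (SE 0.13, 1.65-fold, adjusted p = 0.00259). The difference itself was tested between times: the 1 h level was 0.94 above that at 15 min (SE 0.13, adjusted p = 0.000742), where 3.60 percent of all probe sets were changed, and fell by 0.84 from 1 h to 6 h (adjusted p = 0.000865, background 6.43 percent). The call against isotonic N2 was lost when isotonic array 2, 1 h array 1 or 1 h array 3 was left out (0.64 to 0.70 in these fits, highest adjusted p 0.0135), and all 3 of these calls were lost in a fit over all 30 arrays (adjusted p 0.208, 0.11 and 0.142). After 1 h, 4 of 6 muscle, 3 of 8 hypodermal and 2 of 8 intestinal markers were higher. So were 2 of 5 tested neuronal and 2 of 5 tested sperm markers. Lower were 2 of 10 oocyte and embryo markers and 1 of 8 intestinal markers.

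In the mutants tir-1 was 6.89, 6.09 and 6.78 in osm-11, 5.98, 6.11 and 6.37 for dpy-9 and 5.82, 5.50 and 6.74 for dpy-10. The osm-7 arrays were 4.18, 5.32 and 5.75, and those of osm-8 4.67, 5.70 and 5.95. The osm-11, dpy-9 and dpy-10 arrays all lay at least 1 log2 unit above the isotonic arrays, whereas array 1 of osm-7 lay among them. The osm-11 rise was 2.35 (SE 0.40, 5.11-fold, adjusted p = 0.000453), that of dpy-9 was 1.92 (3.78-fold, adjusted p = 0.000424) and that of dpy-10 was 1.79 (3.45-fold, adjusted p = 0.000731). Neither remaining strain passed: the osm-8 difference was 1.20 (95% interval 0.36 to 2.05, adjusted p = 0.0185) and the osm-7 difference 0.85 (0.00 to 1.69, adjusted p = 0.17). In osm-11, 2 of 6 muscle, 3 of 5 tested neuronal, 4 of 8 intestinal and 3 of 8 hypodermal markers were higher. Lower there were 2 of 10 oocyte and embryo, 1 of 8 intestinal and 1 of 8 germline markers. Their part in the tir-1 rise was not tested.

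A further probe set of tir-1 (174406_at), dimmer than the first, was 3.21, 3.09 and 3.23 in isotonic N2 and 4.93, 4.54 and 4.31 in osm-11. Its isotonic arrays lay below 3.24, the lowest third-highest value tested, so it passed the filter only through mutant arrays. The rises of this probe set there start near background and are not separate support, and its other wild-type values lay near background too. It rose by 1.42 in osm-11 (SE 0.20, 2.67-fold, adjusted p = 9.28e-05), and the rises for dpy-9 and dpy-10 were 0.94 (lost with quantile normalization) and 1.09. At 1 h it was 3.45, 3.23 and 3.21, a difference of 0.12 (adjusted p = 0.477), so the rise at 1 h was passed by 1 of the 2 probe sets. The dimmer one did not pass between times either (1 h against 15 min 0.16, adjusted p = 0.324, and 6 h against 1 h -0.22, adjusted p = 0.164). Between osm-11 and osm-7, strains whose genes encode related secreted proteins, tir-1 differed by 1.51 (0.66 to 2.35, adjusted p = 0.063) on the brighter probe set and by 1.07 on the dimmer one (adjusted p = 0.00726, lost in 12 of 18 fits that left out 1 array). Between these strains 1.18 percent of all probe sets were changed. Against the osm strains, the mean of the dpy strains was 0.38 higher (adjusted p = 0.189).

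SEK-1 is the MAP kinase kinase that activates PMK-1 and PMK-2. Its brighter probe set was 7.18, 7.37 and 6.37 in isotonic N2, 7.56, 7.69 and 7.67 after 1 h, 7.85, 7.79 and 7.89 for dpy-9 and 7.51, 6.59 and 7.83 for dpy-10. The 1 h and dpy-9 arrays lay above all isotonic arrays and the dpy-10 arrays overlapped them. Neither difference passed the test: 0.67 after 1 h (SE 0.23, adjusted p = 0.0818) and 0.87 in dpy-9 (SE 0.29, 0.26 to 1.48, adjusted p = 0.0128). The dpy-9 value passed with quantile normalization (1.06, adjusted p = 0.00884) and in the fit over all 30 arrays (adjusted p = 0.00351). The dimmer probe set (175279_s_at) was 5.62, 5.40 and 5.28 in isotonic N2 and 6.38, 6.32 and 6.19 in dpy-9, and rose there by 0.86 (SE 0.19, adjusted p = 0.000701) and in dpy-10 by 0.65 (adjusted p = 0.00601, lost with quantile normalization, with a replicate block and in 4 of 18 fits without 1 array). The probe sets of sek-1 correlated with r = 0.47 over the 30 arrays, lower than those of tir-1 (r = 0.88).

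The p38 kinases themselves are encoded by pmk-1, pmk-2 and pmk-3, which lie next to each other in the order pmk-3, pmk-2, pmk-1 in the RefSeq annotation. The level of pmk-1, the kinase of intestinal immunity, was 6.39, 6.29 and 6.29 in isotonic N2, 6.79, 6.78 and 6.52 after 1 h and 5.74, 6.25 and 6.15 after 6 h. The dpy-9 arrays read 6.47, 5.96 and 6.15, and the dpy-10 arrays 6.30, 7.02 and 6.23. All 1 h arrays lay above the isotonic ones and all 6 h arrays below them, while both dpy groups overlapped them. No comparison with isotonic N2 passed: the difference was 0.38 after 1 h (SE 0.15, 0.06 to 0.69, adjusted p = 0.121), -0.13 in dpy-9 (-0.67 to 0.42) and 0.19 in dpy-10 (-0.35 to 0.74). From 1 h to 6 h it differed by -0.65 (SE 0.15, adjusted p = 0.0112), a value that passed with quantile normalization (adjusted p = 0.00504), with centred arrays (0.00451) and with a stricter filter (0.00731).

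The probe set of pmk-2, a kinase known to act in the nervous system, stayed between 2.33 and 3.02 on all arrays, below the level of the dimmest probe set tested (3.24 on its third-highest array). In a fit without that filter its differences from isotonic N2 ran from -0.12 to 0.16, with adjusted p from 0.557 to 0.97. Between times the largest difference was 0.24 (1 h against 15 min, adjusted p = 0.503). At these levels an array cannot resolve signal from background.

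PMK-3 is the p38 of the DLK-1 axon growth and regeneration pathway. Its probe set was 5.52, 5.49 and 5.28 in isotonic N2, 5.66, 6.08 and 6.03 after 1 h, 6.63, 5.78 and 5.89 for dpy-9, and 6.64, 6.01 and 6.56 for dpy-10. These 3 groups lay wholly above the isotonic arrays. Only dpy-10 passed, with a rise of 0.97 (SE 0.25, 0.44 to 1.50, 1.96-fold, adjusted p = 0.00234), lost with quantile normalization (0.71, adjusted p = 0.0174) and without isotonic array 3, dpy-10 array 1 or dpy-10 array 3 (0.85 to 0.90 in these fits, highest adjusted p 0.0134). The differences of 0.49 after 1 h (adjusted p = 0.0289) and 0.67 in dpy-9 (adjusted p = 0.0251) did not pass. In both dpy strains 4 of 5 tested neuronal markers were higher and the fifth, snb-1, was lower in dpy-10, with rab-3, unc-10 and snt-1 near background.

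VHP-1 is the dual-specificity phosphatase that removes the activating phosphates of KGB-1 and PMK-1. The brighter vhp-1 probe set (174338_at) was 5.83, 5.76 and 5.85 in isotonic N2, 7.13, 7.11 and 7.42 for dpy-9 and 6.78, 7.44 and 7.11 for dpy-10. Both dpy groups lay above every other array of the series, since the highest array elsewhere was 6.70, after 1 h. It rose by 1.40 in dpy-9 (SE 0.17, 2.64-fold, adjusted p = 2.15e-06) and by 1.29 in dpy-10 (2.45-fold, adjusted p = 4.57e-06). In the osm strains the differences were 0.13, 0.01 and 0.19 (osm-7, osm-8 and osm-11, adjusted p from 0.469 to 0.957), with an interval in osm-8 of -0.35 to 0.38. Tested directly, the mean of the dpy strains was 1.24 above that of the osm strains (SE 0.11, adjusted p = 4.88e-08), where 60.4 percent of all probe sets were changed and 27.2 percent higher.

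After 1 h the vhp-1 arrays were 6.62, 6.70 and 5.93, all above isotonic, but the difference of 0.60 did not pass (0.17 to 1.03, adjusted p = 0.0637). The dimmer probe set (193148_at) was 5.22, 5.16 and 5.54 in isotonic N2 and 7.35, 6.67 and 6.13 after 1 h, and rose by 1.41 (SE 0.27, 2.66-fold, adjusted p = 0.00429). That call was lost without isotonic array 1 or 2 or 1 h array 1 or 2 (highest adjusted p 0.0201), and the value was 1.10 to 1.70 over all 15 fits without 1 array. From 15 min to 1 h this probe set rose by 1.41 (adjusted p = 0.0069). That call was lost with quantile normalization, without the filter, with 32 added and with a replicate block. It was also lost in 10 of 15 fits without 1 array. By 6 h the arrays of this probe set were again within the isotonic range. The difference from 1 h was -1.45 (adjusted p = 0.00355, lost in 4 of 15 fits without 1 array).

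That dimmer probe set was 7.12, 6.78 and 7.22 in dpy-9, a rise of 1.73 (adjusted p = 2.57e-05), and 6.27, 5.22 and 6.25 in dpy-10, a difference of 0.61 (adjusted p = 0.0507). Array 2 of dpy-10 was lowest of its group here and highest of it on the brighter probe set. The difference between dpy-10 and dpy-9 was -1.13 and did not pass (adjusted p = 0.0153), where 3.53 percent of all probe sets were changed. On this dimmer probe set the mean of the dpy strains was 0.65 above that of the osm strains (adjusted p = 0.00306). That call was lost with quantile normalization and in 2 of 18 fits without 1 array. The probe sets of vhp-1 correlated with r = 0.69 over the 30 arrays.

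KGB-1 is the JNK-like MAP kinase of heavy metal and protein folding stress. Its level was 4.86, 4.90 and 4.23 in isotonic N2, 4.67, 4.87 and 4.11 at 15 min, 6.03, 5.22 and 5.44 at 1 h and 4.58, 4.98 and 4.97 at 6 h. The dpy-9 arrays read 6.79, 6.00 and 6.34, and the dpy-10 arrays 6.44, 6.55 and 6.90. The 1 h arrays and both dpy groups lay wholly above the isotonic arrays, and the 15 min and 6 h arrays overlapped them. It rose by 1.71 in dpy-9 (SE 0.31, 3.27-fold, adjusted p = 0.000114) and by 1.96 in dpy-10 (3.90-fold, adjusted p = 2.65e-05).

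After 1 h the kgb-1 difference was 0.90 (SE 0.24, 0.37 to 1.43, adjusted p = 0.0285), past 0.05 but not 0.01. For osm-7, osm-8 and osm-11 it was -0.06, 0.62 and 0.70, none of which passed (adjusted p = 0.104 in osm-8 and 0.109 in osm-11). The dpy strains stood 1.42 above the osm strains (SE 0.20, 2.67-fold, adjusted p = 8.71e-06). The kgb-1 probe set is of a kind that can match more than one transcript. Whether its paralog kgb-2 contributes to it was not tested.

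ATF-7 is the bZIP transcription factor that PMK-1 phosphorylates. The brightest of its 3 probe sets (172407_x_at, a kind that can cross-hybridize) was 9.90, 10.13 and 10.17 in isotonic N2, 9.69, 9.46 and 9.65 after 15 min, 9.89, 9.87 and 10.08 after 6 h, and 9.44, 9.12 and 9.65 in dpy-10. The 15 min and dpy-10 arrays lay below every isotonic array. At 15 min it fell by 0.47 (SE 0.0963, adjusted p = 0.00428) and for dpy-10 it fell by 0.66 (SE 0.15, adjusted p = 0.000701), the smallest called changes among the representative probe sets of the 8 genes. Both were lost with quantile normalization, at -0.38 (adjusted p = 0.0354) and -0.46 (adjusted p = 0.0131). The 15 min call was also lost with centred arrays (adjusted p = 0.0406), in the fit over all 30 arrays (adjusted p = 0.012), and without isotonic array 2 or 3 or 15 min array 2 or 3 (-0.49 to -0.40 in these fits, highest adjusted p 0.0208).

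The other atf-7 probe sets moved the same way. The probe set 191216_s_at was 9.78, 9.76 and 9.71 in isotonic N2, 9.11, 9.01 and 9.37 after 15 min and 9.13, 8.52 and 9.33 in dpy-10. It fell by 0.59 at 15 min (SE 0.10, adjusted p = 0.00156, lost in the fit over all 30 arrays) and by 0.76 for dpy-10 (adjusted p = 0.00215, lost without dpy-10 array 2 and with quantile normalization). The probe set 173892_s_at was 8.74, 8.53 and 8.93 in isotonic N2 and 8.21, 8.30 and 7.95 in dpy-9, and it fell by 0.58 in each dpy strain (adjusted p = 0.00149 and 0.00136), both lost with quantile normalization. Its difference of -0.44 at 15 min did not pass (adjusted p = 0.0265). After 15 min, 5 of 10 oocyte and embryo markers were lower (egg-1, oma-1, oma-2, mex-5 and mex-6).

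SKN-1 is the Nrf-like factor of detoxification, and its maternal product also specifies endoderm in the embryo. The probe set with the highest mean (194169_s_at) was 9.18, 8.48 and 8.35 in isotonic N2, 8.26, 8.08 and 8.10 after 15 min and 7.32, 8.20 and 7.99 in dpy-10. Although the 15 min and dpy-10 arrays lay below the isotonic ones, no comparison passed, with -0.53 after 15 min (adjusted p = 0.0885) and -0.84 in dpy-10 (SE 0.29, adjusted p = 0.0154). The dpy-10 value passed without dpy-10 array 2 (-1.02, adjusted p = 0.00924) and with centred arrays (adjusted p = 0.00162).

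Both other skn-1 probe sets fell in dpy-10. The probe set 174799_at was 8.62, 8.40 and 8.66 in isotonic N2, 8.08, 7.93 and 7.52 in osm-8, 7.52, 7.54 and 7.65 for dpy-9, and 7.59, 7.56 and 7.33 for dpy-10. These mutant arrays lay below all isotonic arrays, and it fell by 0.72 in osm-8 (SE 0.16, adjusted p = 0.0013, lost with quantile normalization). In dpy-9 it fell by 0.99 (adjusted p = 3.27e-05), and in dpy-10 it fell by 1.07 (2.10-fold, adjusted p = 1.35e-05). The probe set 188421_at was 8.40, 8.66 and 8.58 in isotonic N2 and 7.11, 5.91 and 7.37 in dpy-10, where it fell by 1.75 (SE 0.25, 3.36-fold, adjusted p = 1.24e-05) and stayed called at -2.04 to -1.31 under every alternative run. Its differences of -0.60 in osm-8 (adjusted p = 0.0593) and -0.78 in dpy-9 (adjusted p = 0.0116) did not pass. All 10 oocyte and embryo markers were lower in these 3 strains, and their part in the skn-1 values was not tested.

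Ordered by group mean, tir-1 ran from 15 min, 6 h, isotonic and 1 generation through 1 h, osm-7, osm-8, dpy-10 and dpy-9 to osm-11. Neighbours in that order overlapped, except 6 h and isotonic, and 1 generation and 1 h. The order for vhp-1 was 6 h, 1 generation, 15 min, isotonic, osm-8, osm-7, osm-11, 1 h, dpy-10 and dpy-9, with a gap only between 1 h and dpy-10. That for kgb-1 was 15 min, osm-7, isotonic, 6 h, 1 generation, osm-8, osm-11, 1 h, dpy-9 and dpy-10, with a gap only between 1 generation and osm-8. None of these gaps is a test.

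Across the 30 arrays, which share their groups, vhp-1 and kgb-1 were most alike of the members (r = 0.82), followed by pmk-3 and kgb-1 (0.78), tir-1 and pmk-3 (0.72) and tir-1 and kgb-1 (0.70). The r of pmk-1 with the others was -0.13 to 0.31. Among all tested genes, those with the profile most like tir-1 were rcan-1 (r = 0.92), aqp-2 (0.90) and cyp-33A1 (0.90), a calcineurin regulator, an aquaporin and a cytochrome P450. Most like vhp-1 were W02F12.2 (0.91), trhr-1 (0.91) and ilys-4 (0.90), and most like kgb-1 were ilys-4 (0.92), F14B8.5 (0.90) and cest-17 (0.90). The lysozyme gene ilys-4 was in both lists. For pmk-3 the genes were F13E6.1 (0.83), mmad-1 (0.82) and unc-129 (0.82), and for atf-7 xbx-6, smp-1 and frm-4 (0.80 each).

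Genes listed as possible inputs of the p38 cascade or as acting beside it changed mainly in the strains with many changes. The list includes the Toll pathway genes ikb-1 and tol-1, whose place above this cascade is not established here. The gene lower in both dpy strains was tol-1. Of 11 tested genes, 1 was lower after 15 min and again after 6 h (ikb-1), 1 was higher in osm-11, and 3 were higher and 1 lower in osm-8. Over all probe sets 12.1, 5.72, 13.5 and 38.5 percent were changed in these comparisons. For dpy-9 5 were higher and 1 lower, and for dpy-10 6 were higher and 1 lower, where 62.0 and 64.6 percent of all probe sets were changed, 26.2 and 28.8 percent higher. The list medians for dpy-9 and dpy-10 were 0.80 and 0.68, against -0.23 and -0.22 over all probe sets. The receptor gene dcar-1, which acts upstream of the epidermal nlp peptides, rose by 1.98 in osm-11 (SE 0.33, adjusted p = 0.000421), with larger values for dpy-9 (2.77, adjusted p = 1.69e-06) and dpy-10 (2.30, adjusted p = 1.13e-05). The kinase genes unc-43 (CaMKII) and tpa-1 (protein kinase C) rose by 2.52 and 1.54 in dpy-9, each on 1 probe set of 9 and 2. The IkB-like gene ikb-1 had both signs: it fell by 1.43 at 15 min (adjusted p = 0.000551) and fell by 1.52 at 6 h (adjusted p = 0.000436), and it rose by 1.30 in osm-8 (adjusted p = 0.00163).

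In the other MAP kinase modules, 19 genes were tested. After 15 min 4 were lower (mek-1, max-2, jun-1 and mom-4) and none higher, against 6.24 percent of probe sets lower. The osm-8 strain had 1 higher and 5 lower, dpy-9 4 higher and 7 lower, and dpy-10 6 higher and 7 lower, against 38.5, 62.0 and 64.6 percent of all probe sets changed. The MAP kinase kinase gene mek-1, which acts above kgb-1, had changes of -0.66 at 15 min (SE 0.13, adjusted p = 0.00347), -1.10 for osm-8 (adjusted p = 0.000319) and -1.44 for dpy-10 (adjusted p = 7.57e-06), and it was lower in dpy-9 too, where kgb-1 was higher as in dpy-10. The AP-1 factor gene fos-1 rose by 0.75 for osm-11 (adjusted p = 0.0044), 1.83 for dpy-9 (adjusted p = 7.85e-08) and 1.62 for dpy-10. The genes lin-45, mpk-1 and lip-1 of the ERK module, which acts in the germline among other tissues, were lower in both dpy strains, as were the oocyte and embryo markers.

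Downstream, 9 genes known as immune targets of PMK-1 and ATF-7 were tested. They include clec-85 and clec-67, of a class that the study picked out on these samples, so these are not independent evidence. At 15 min 4 were higher and none lower (median 0.90, against 5.86 percent of all probe sets higher). At 1 h 4 were higher and none lower (median 0.71, against 4.85 percent higher). At 6 h 6 were higher and 2 lower (0.88, against 5.72 percent of all probe sets changed). The 1 generation group had 4 lower and none higher (-0.35, against 7.70 percent changed). The medians over all probe sets were -0.07, -0.01, -0.01 and -0.04 at 15 min, 1 h, 6 h and 1 generation. For osm-7 2 were higher and 3 lower (7.71 percent of all changed), and for osm-11 4 were higher and 2 lower (13.5 percent changed). For dpy-9 7 were higher and none lower (2.55, against 26.2 percent of all probe sets higher), and for dpy-10 8 were higher and none lower (28.8 percent higher). Intestinal markers were also higher in these strains, in 5 of 8 and 7 of 8 cases, and their part in these counts was not tested. The infection response gene irg-5 rose by 1.26 at 15 min (adjusted p = 3.99e-05), 5.77 in osm-8 (SE 0.31, adjusted p = 3.98e-10), 3.34 in osm-11 and 3.70 in dpy-10. Some genes of the list had both signs: irg-4 rose by 3.69 in osm-8 and 4.42 in dpy-10, while its change was -1.34 for osm-7 and -0.97 for osm-11. The gene C17H12.8 rose by 3.18 at 1 h (adjusted p = 1.78e-07) and fell by 2.55 in osm-7 (adjusted p = 7.66e-09). In osm-8, where no cascade member was changed on its representative probe set, 3 of these 9 genes were higher and 0 lower. Over all probe sets 38.5 percent were changed there, counting both directions, and 6 of 8 intestinal markers were higher.

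Epidermal nlp peptide genes, a class that the study picked out on these samples and which is therefore not independent evidence, were tested for 5 genes. In dpy-9 and dpy-10 all 5 were higher, against 26.2 and 28.8 percent of all probe sets. All 5 were higher in osm-8 too, where 38.5 percent of all probe sets were changed in either direction. After 1 h 4 were higher, against 4.85 percent of all. At each other salt exposure only 1 was higher: nlp-27 at 15 min, and nlp-29 at 6 h and at 1 generation. Over all probe sets 5.86 percent were higher at 15 min, and 5.72 and 7.70 percent were changed at the later times. The list median was 1.80 at 1 h, 0.50 at 15 min, 0.002 at 6 h and 0.61 at 1 generation. In osm-7 and in osm-11 4 were higher, against 7.71 and 13.5 percent changed in either direction. None was lower in any comparison. All 5 probe sets are of the _x_at kind that can cross-hybridize, so they may not be separate readings. The gene nlp-30 rose by 1.80 after 1 h (adjusted p = 0.000615) and by 5.02 in dpy-9, and nlp-31 by 2.07 and 4.35. No member was called on its representative probe set in osm-7 or osm-8.

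**Figure D3:**
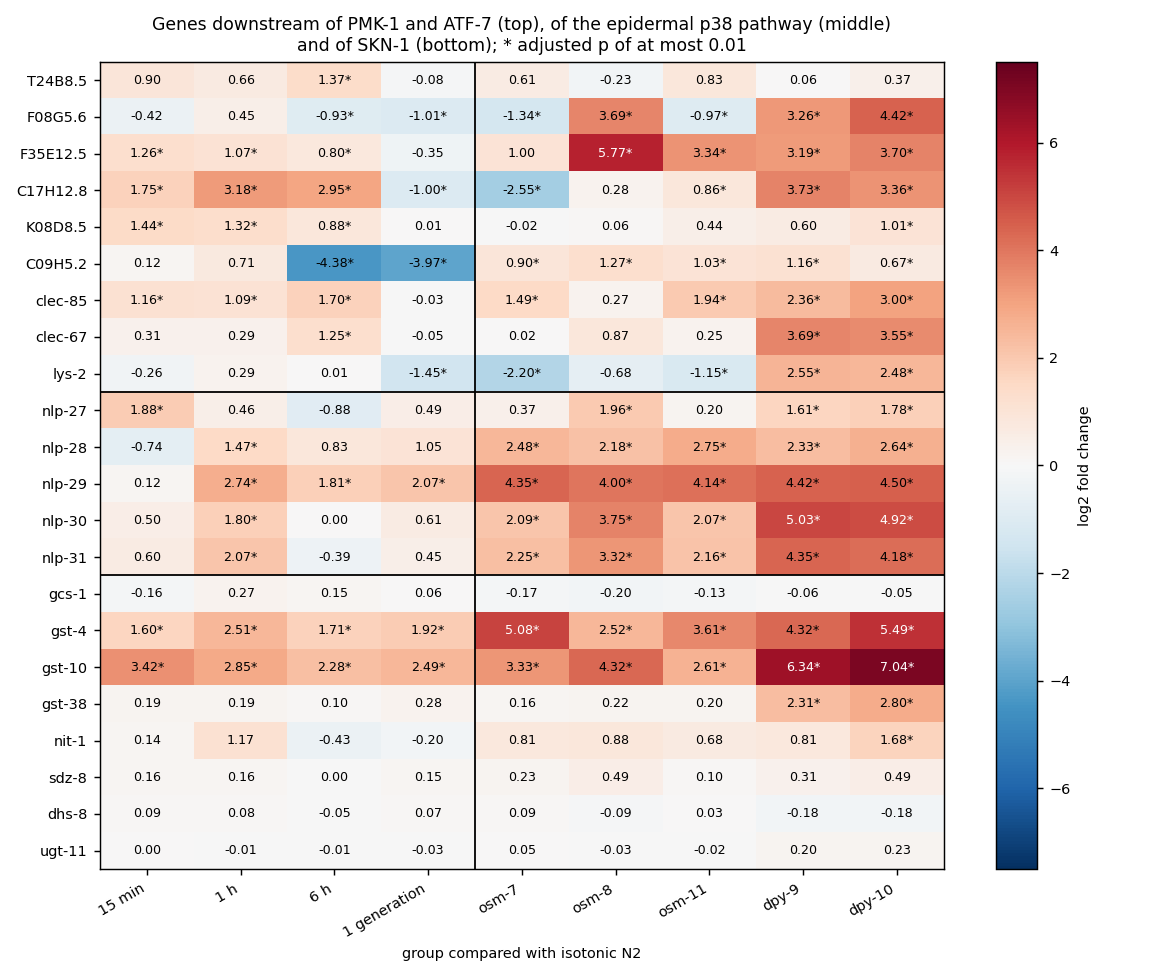
Log2 fold change against isotonic N2 (colour and printed value, asterisk at an adjusted p of at most 0.01) of 22 downstream genes (vertical axis) in the 9 comparisons (horizontal axis): 9 PMK-1 and ATF-7 targets, 5 epidermal nlp genes and 8 SKN-1 targets. The nlp genes have no called fall, irg-4 and C17H12.8 have both signs, and gcs-1 lies between -0.21 and 0.27.

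Of 8 tested SKN-1 targets, gst-10 and gst-4 (glutathione transferases) were higher in all 9 comparisons. Outside the dpy strains they were the only 2 called. Over all probe sets 5.86 percent were higher after 15 min and 4.85 percent after 1 h. Changed in either direction were 5.72 (6 h), 7.70 (1 generation), 7.71 (osm-7), 38.5 (osm-8) and 13.5 percent (osm-11). In dpy-9 gst-38 was added (a rise of 2.31, adjusted p = 4.74e-07), and in dpy-10 gst-38 and nit-1 (2.80 and 1.68), so that 3 of 8 and 4 of 8 were higher against 26.2 and 28.8 percent of all probe sets. The gene gcs-1 encodes the rate-limiting enzyme of glutathione synthesis and is a standard SKN-1 target. On the 1 probe set used of its 2, it had differences from -0.21 to 0.27 and passed in no comparison. The list median ran from 0.05 after 6 h to 1.08 in dpy-10, against -0.01 and -0.22 over all probe sets.

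Of 9 regulators of SKN-1, 1 was higher and 4 or 5 were lower in each of osm-8, dpy-9 and dpy-10, against 38.5, 62.0 and 64.6 percent of all probe sets changed. The kinase gene sgk-1 rose by 1.40 in osm-8 (adjusted p = 0.000782), 1.62 for dpy-9 and 2.24 for dpy-10 (adjusted p = 2.87e-06), while akt-1, a related kinase, fell by 0.43 at 15 min (adjusted p = 0.00843) and fell by 1.16 in dpy-10 (adjusted p = 7.13e-07). The protease gene ddi-1 and the glycanase gene png-1, whose products process the SKN-1A isoform, fell by 0.94 and 1.10 in dpy-9.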

How the data were processed

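RNA from whole young adult C. elegans was labelled after poly(T) priming and hybridized to Affymetrix arrays by the authors, who normalized them by GC-RMA with the Partek software. What they deposited for each probe set and array is a linear intensity. A log2 scale had been assumed, so log2 was taken before every fit. Probe sets were ranked on their third-highest value over the 30 arrays and the top 61.5 percent were tested (lowest third-highest log2 value 3.24), because present calls were not used here.

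The study called changes with SAM and a 3-fold change. Here limma 3.58.1 in R 4.3.3 was used in its place, with 1 fit over the 15 wild-type arrays and 1 over the 18 isotonic arrays, which share the isotonic N2 arrays. Changed means an adjusted p of at most 0.01, Benjamini-Hochberg over all tested probe sets, and 3-fold was counted beside it. Tables and plots used Python 3.11.15, numpy 2.4.6, pandas 2.3.3 and matplotlib 3.10.9. The fits were tested on simulated data.

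The members and gene lists were chosen with earlier results of these data known. All members were named, up to 4 genes of each pathway list with the largest change among those changed, and the 3 genes most correlated with each changed member. Genes counted in a list of 5 or fewer, gcs-1 and the markers were named after their values were seen. The order of groups was given for members that changed by at least 2-fold. Suffixes _s_at and _x_at mark probe sets that can match several transcripts.

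The labels do not say that replicates were separate cultures, and the methods describe individual preparations of which those with the best RNA were hybridized. The p-values therefore rest on the spread between 3 samples per group, pooled over all groups of a fit and moderated across probe sets. They do not measure the spread of the compared groups alone, and the number of arrays limits the precision. Alternatives covered the filter, all 30 arrays in one fit, quantile normalization, arrays centred on their median, an intensity of 32 added, the variance prior, a replicate block, the thresholds, any probe set of a gene and each array left out in turn.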

Additional observations from a re-analysis of the deposited data

Results flagged for a closer look

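The change of tir-1, on its brighter probe set, differed between exposure times by a test of the difference itself. The 1 h level exceeded the 15 min level by 0.94 on the log2 scale, and the 6 h level fell by 0.84 from that at 1 h. All 3 arrays at 1 h lay above all arrays at 15 min and 6 h. Neither difference passed in a fit over all 30 arrays (adjusted p = 0.11 and 0.142), nor on the dimmer tir-1 probe set (0.16 and -0.22, adjusted p = 0.324 and 0.164). That dimmer probe set lay near background in wild type. With 3 arrays per group, single arrays were not assessed as outliers.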

How the results depend on the processing

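No result changed direction while called. With all 30 arrays in one fit the members changed became 0 after 15 min and 0 after 1 h, 1 in osm-8 (tir-1, adjusted p = 0.00329) and 5 in dpy-9. Quantile normalization gave 0 after 15 min and 3 in dpy-10, and centring gave 0 after 15 min. At an adjusted p of at most 0.05 there were 3 after 1 h, 1 in osm-8, 5 in dpy-9 and 12 over the direct contrasts, against 4 at 0.01. At 0.05, 13.6 percent of all probe sets passed after 1 h. With a 3-fold change as well there were 0 after 15 min, 0 after 1 h, 2 in dpy-10 and 0 over the direct contrasts. Counting any probe set of a gene gave 2 after 1 h, 1 in osm-8, 6 in dpy-9 and 9 over the direct contrasts. In dpy-10 it added sek-1 and skn-1. Other shares of all probe sets under the alternatives are not given in this paragraph, so larger counts are not read as gains. Already at 0.01, 38.5 percent of all probe sets were changed in osm-8 and 62.0 percent in dpy-9. Between the means of the dpy and osm strains the share was 60.4 percent. With single arrays left out, the count was 0 to 1 after 15 min, 0 to 1 after 1 h, 0 to 1 in osm-8, 3 to 4 in dpy-9 and 4 to 6 in dpy-10. A replicate block gave 1 in osm-8 (tir-1, adjusted p = 0.00953) and lost 4 calls of further probe sets: vhp-1 at 1 h against isotonic N2 and against 15 min, sek-1 in dpy-10, and tir-1 in osm-11 against osm-7. Numbers did not pair the arrays: same-numbered deviations correlated with r from -0.44 to 0.29, over 0.1 in 7 of 27 pairs, and 5 of 27 arrays were most like arrays of their own number. Dim probe sets such as pmk-2 carry no measurable change, and 3 arrays per group limit all intervals. SAM was not run.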
